A study of Homo sapiens with 6 samples.

Results

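The coagulation and fibrinolysis genes are the 36 genes whose products form a blood clot, hold it in check or dissolve it. They were chosen by name, as the rows of the deposited table whose gene symbol was on a list of 36, and all 36 were found among its 50868 genes. The expression of these genes was measured by RNA sequencing in Huh7 cells, an established human hepatoma line. In the overexpression group (3 libraries), cells were given by lipofection a plasmid that overexpresses hsa_circ_0098181, a circular RNA spliced from exons of SOX5. In the control group (3 libraries), cells received the control plasmid in the same way. Total RNA of both groups was taken 48 hours later. Delivery was by transient transfection into a single cell line, the labels name no further treatment, and they do not say whether replicates were separate cultures, so p-values measure the spread between these libraries only.

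The libraries held between 11130902 and 14138262 gene counts, of which the 36 genes took 0.649% to 0.799%. Reads of SOX5, the host gene of the delivered circle, numbered 26907, 33577 and 24906 in the overexpression libraries and 453, 404 and 380 in the control libraries, which matched every label. Mitochondrial transcripts took 9.29% of the counts of control replicate 1 and 6.32% to 7.04% in the other 5 libraries. Levels are given in CPM, the depth-normalised read count, on library sizes scaled by the trimmed mean of M values, and levels compared between genes were divided by the merged exon length in kilobases. A gene was tested when it passed the filter on low counts, which left 30 of the 36 genes among 15055.

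Clotting is a cascade of proteases made as inactive zymogens, in which factor VII bound to tissue factor, or factor XII on a charged surface, leads through factor X to thrombin, which cuts fibrinogen into fibrin. Antithrombin, the protein C pathway and tissue factor pathway inhibitor restrain the cascade, and plasmin, made from plasminogen, dissolves the clot. Hepatocytes secrete most of these proteins, while von Willebrand factor, thrombomodulin and tissue plasminogen activator come mainly from endothelial cells. Fibrinogen is a liver acute-phase protein built from Aα, Bβ and γ chains, whose genes lie side by side on chromosome 4.

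The study asked whether the circle acts through hsa-miR-18a-3p, a microRNA, so its mature sequence is shown first, with the seed (bases 2 to 8) in capitals. It lies at chr13:91350797-91350819 on the plus strand (RefSeq, GRCh38.p14). The heptamer that pairs with this seed, AGGGCAG, was searched on the sense strand of annotated 3′ UTRs (GENCODE 29), and the members that hold it are shown with the match in capitals.
hsa-miR-18a-3p: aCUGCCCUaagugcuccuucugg
SERPINF2 site: cggctgggaggAGGGCAGgcatcggggag
F8 site: tcctcagctccAGGGCAGtgtccctccct
The SERPINF2 window covers chr17:1754698-1754726 on the plus strand and the F8 window chrX:154837527-154837555 on the minus strand (GRCh38). The heptamer was found in 2 of the 30 tested members (6.7%), against 2063 of 12552 tested genes with an annotated 3′ UTR (16.4%). UTR length was not taken into account, and the UTR searched was only 12 bases long for F10 and 37 for PROC. Other transcripts of the same genes were not searched. A match is a run of letters and not a measured target site.

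The promoters of the fibrinogen genes are shown because the chains make up the largest share of the counts of these genes, and because FGA varied more between libraries than FGB and FGG. The motifs searched were GTTAAT (a hexamer of the HNF1 site, a liver-enriched factor), CTGGGA (the core of the type II interleukin-6 response element, through which STAT3 acts on acute-phase genes), TATAAA (the core promoter box bound by TBP) and TTGCNNAA (a C/EBP site), on both strands in the 250 bases before the start site. Each line below is 30 bases on the gene's own strand, with the match in capitals (RefSeq, GRCh38.p14).
FGA, HNF1 hexamer: acaaagccaatgATTAACcaaacctcttgc
FGB, HNF1 hexamer: caaaaattaaatATTAACtaaggaaaggta
FGA, CTGGGA: gagcaagaatttCTGGGAtaccaacagcat
FGB, CTGGGA: aaataagctttgCTGGGAagatgttgctta
FGG, CTGGGA: tgtgtgcaaaatCTGGGAacctgacagtat
FGG, CTGGGA on the opposite strand: cagtcctggctaTCCCAGgagcttacataa
The FGA windows are chr4:154590777-154590806 (HNF1 hexamer) and chr4:154590852-154590881 on the minus strand. The FGB windows are chr4:154562917-154562946 (HNF1 hexamer) and chr4:154562856-154562885 on the plus strand. The FGG windows are chr4:154612800-154612829 and chr4:154612681-154612710 on the minus strand, and both lie within exons annotated to a longer FGG transcript. The HNF1 hexamer began 52 bases before the start site of FGA and 51 bases before the upstream of the 2 listed start sites of FGB (-82 from the other), and these letters were not in the FGG window. Among members, RefSeq promoters were matched for 30 of 36. Some genes have more than 1 listed start site, and a gene was counted where any of its windows held the motif. Of these 30 genes, 7 (23.3%) held GTTAAT, namely FGA, FGB, F2, F13B, KLKB1, PLG and SERPINA10, against 7.5% of all 27305 genes with a promoter. CTGGGA was in 11 (36.7%, against 32.98% of all genes), TATAAA in 4 (13.3%, against 13.05%) and TTGCNNAA in 7 (23.3%, against 11.03%). Over all 35116 single promoters the shares were 6.2%, 28.7%, 10.7% and 9.1% in the same order. The matches shown overlapped no match of another motif.

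Levels per kilobase spanned from 622 CPM per kb for FGB down to 0 for F9 (mean of 6 libraries). The 5 highest after FGB were FGA at 297, A2M (α2-macroglobulin, a broad protease inhibitor) at 278, FGG at 203, F2 (prothrombin) at 96.7 and CPB2 (a carboxypeptidase that slows fibrinolysis) at 64.0 CPM per kb. The fibrinogen chains alone took 43.2% to 52.0% of the counts of the 36 genes and A2M another 20.8% to 26.7%. Fibrinogen and A2M thus held most of the counts of these genes in every library. SERPINF2 (α2-antiplasmin) at 61.8, SERPIND1 (heparin cofactor II) at 60.5, F5 at 44.2, PROS1 (protein S) at 40.5 and SERPINC1 (antithrombin) at 38.5 CPM per kb came next. Below 1 CPM per kb among tested members were KLKB1 (plasma prekallikrein) at 0.966, HRG (histidine-rich glycoprotein) at 0.590 and F8 at 0.310.

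**Figure D1:**
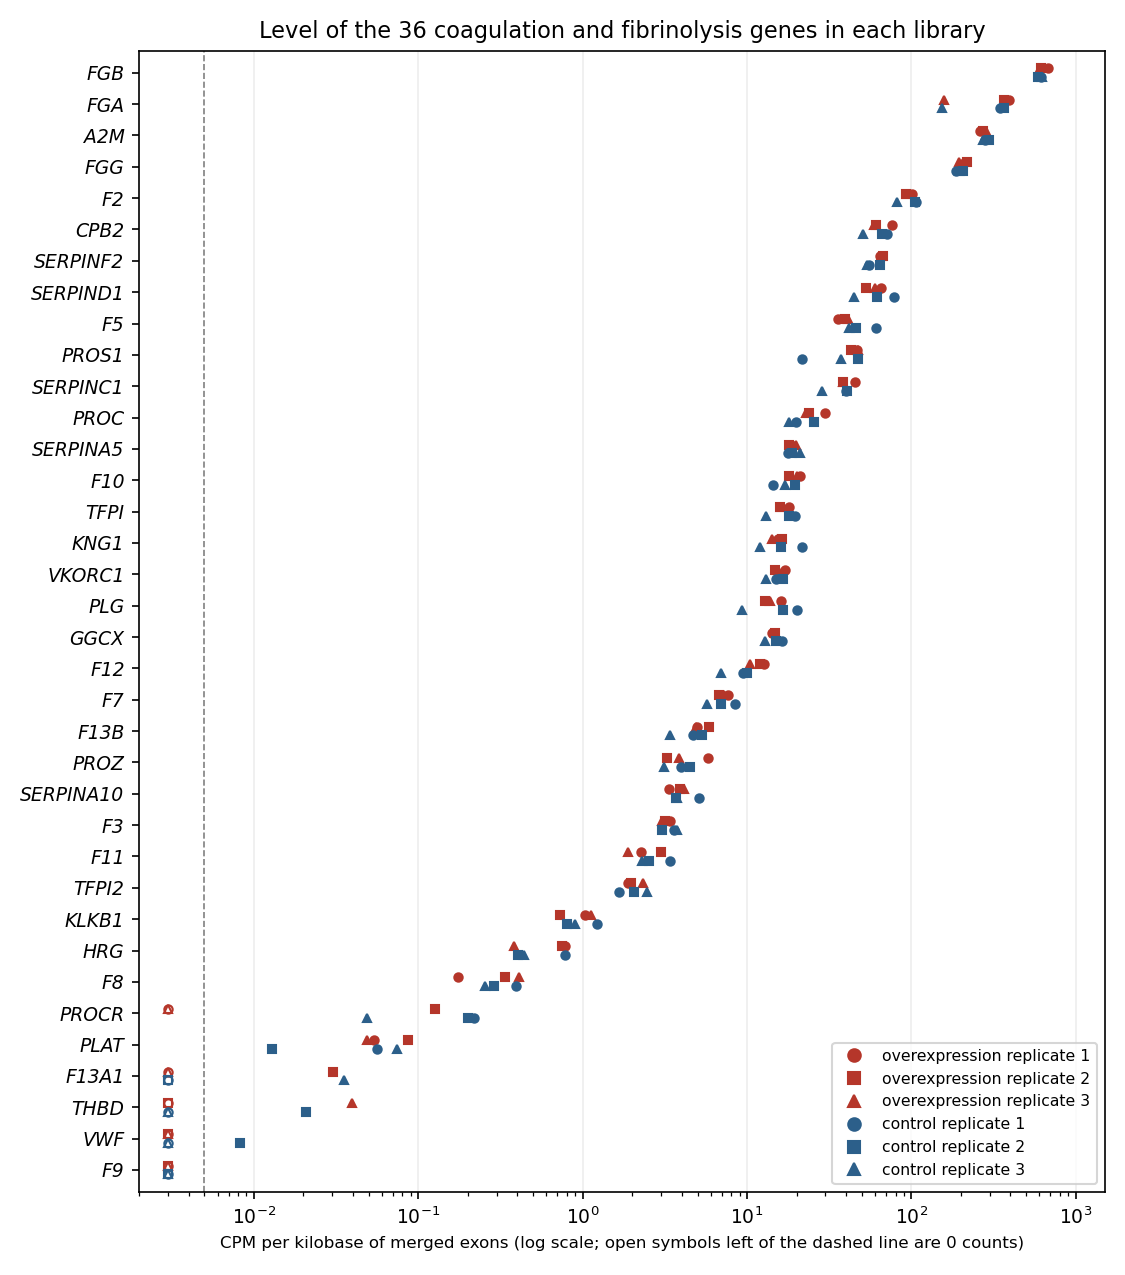
Level of each coagulation and fibrinolysis gene in CPM per kilobase of merged exon on a log axis, with each point 1 library and genes ordered by their mean over 6 libraries. By this mean FGB leads at 622, VWF, THBD, F13A1, PROCR and PLAT sit below 0.1, and F9 is at 0.

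The 6 members that did not pass the filter were at or near 0 in both groups. F9, the hepatocyte-made factor IX that is missing in haemophilia B (chromosome X at 139530758 to 139563458, plus strand), had 0 counts in all 6 libraries, where 3 counts would be 0.212 to 0.277 CPM. VWF (von Willebrand factor) had 1 count in all, in control replicate 2. THBD (thrombomodulin) had 2 counts in overexpression replicate 3 and 1 in control replicate 2, and F13A1 (the A subunit of factor XIII, made by megakaryocytes and macrophages) had 2 counts in overexpression replicate 2 and 2 in control replicate 3. PROCR (the endothelial protein C receptor) had 0, 3 and 0 counts with overexpression and 4, 4 and 1 in control, and PLAT (tissue plasminogen activator) had 5, 8 and 4 against 4, 1 and 6. These 6 genes were not tested in the main fit, and at this depth their counts were too few to judge a difference. Floors and counts of this size cover counting error only.

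Markers of the labelled cell type and of other cell types were summed beside these levels. All 16 hepatocyte and hepatoma markers passed the filter, led by AFP, APOB, ALB and TF, with a summed level of 34460 to 36610 CPM with overexpression and 32880 to 39010 CPM in control. Among them, 3 of 16 had an unadjusted p under 0.05 in edgeR, against 5.5% of all genes tested. These were APOA2 at 0.25, APOB at -0.39 and RBP4 at -0.42 on the log2 scale. None passed after adjustment (smallest edgeR adjusted p = 0.506). Of 12 endothelial markers, 2 passed the filter and CDH5, TIE1, FLT1, EMCN and ERG were at 0. The endothelial sum of 55.2 to 56.5 CPM with overexpression and 48.6 to 61.6 CPM in control was almost all PECAM1. ESAM, the other that passed, was lower without overlap, as were 6.5% of all genes tested. Its means were 1.00 and 1.62 CPM (log2 fold change -0.69, edgeR adjusted p = 0.797). Of 8 megakaryocyte and platelet markers, 1 passed and GP1BA, GP9, PPBP and GP6 were at 0, with sums of 0.354 to 1.29 and 0 to 1.87 CPM. Of 7 macrophage markers, 4 passed, with sums of 492 to 535 and 440.2 to 477 CPM that were mostly LYZ and did not overlap between groups. LYZ itself did not overlap either (log2 fold change 0.15, edgeR adjusted p = 0.797), where 6.4% of all genes tested were higher without overlap. CD68, CD14 and PTPRC overlapped, with log2 fold changes of -0.12, 0.16 and 0.49. The part of these markers in the values of the members was not tested. Of 8 stellate cell and fibroblast markers, 3 passed, with sums of 20.4 to 22.9 and 20.4 to 23.1 CPM. In RNA from whole cultures, fewer cells that express a gene and less of its RNA per cell cannot be told apart.

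No coagulation or fibrinolysis gene differed between the groups at an adjusted p under 0.05 (0 of 30, quasi-likelihood test of edgeR, Benjamini-Hochberg over 15055 genes), where 0.0399% of all genes tested did. The smallest adjusted p among members was 0.797, and DESeq2 also called none. At an unadjusted p under 0.05 there were 2 members (6.67%), against 5.5% of all genes tested. DESeq2 also gave 2 (6.67%), against 2.53% of the 27071 genes it tested without the filter on low counts. These were F12, higher (2.42% of all genes tested), and F5, lower (3.08%). Groups did not overlap in 3 members (10.0%), against 12.9% of all genes tested. Of these, F12 and SERPINF2 were higher (6.4% of all genes tested) and F5 was lower (6.5%). With all libraries these shares, apart from that of DESeq2, were near those of all genes. Leaving out 1 library moved the first share. Without control replicate 2 there were 6 of 30 members (20%, against 7.36% of all genes tested), namely F10, F12, F5, PROC, PROS1 and SERPINF2, and without overexpression replicate 1 or 2 there was none (against 3.29% and 4.38%). None of these members passed after adjustment in edgeR. The log2 fold changes ran from -0.35 to 0.41 with a median of 0.015, against 0.0023 over all genes tested, and 15 members lay above 0 and 15 below. Without control replicate 1, 24 lay above 0 and 6 below, and limma on log2(FPKM + 1) put 19 of 27 above and 8 below.

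The intervals show how large a difference these libraries could have hidden. For 29 of the 30 tested members, the 95% interval of the fold change lay within 2-fold in either direction, and for 18 it lay within 1.5-fold. Over all 15055 genes tested, the same counts were 12662 and 8735. The exception, HRG (named after its values were seen), had a log2 fold change of 0.25 with an interval from -0.57 to 1.07. FGA had the widest interval on the log2 scale, from -0.81 to 0.97.

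**Figure D2:**
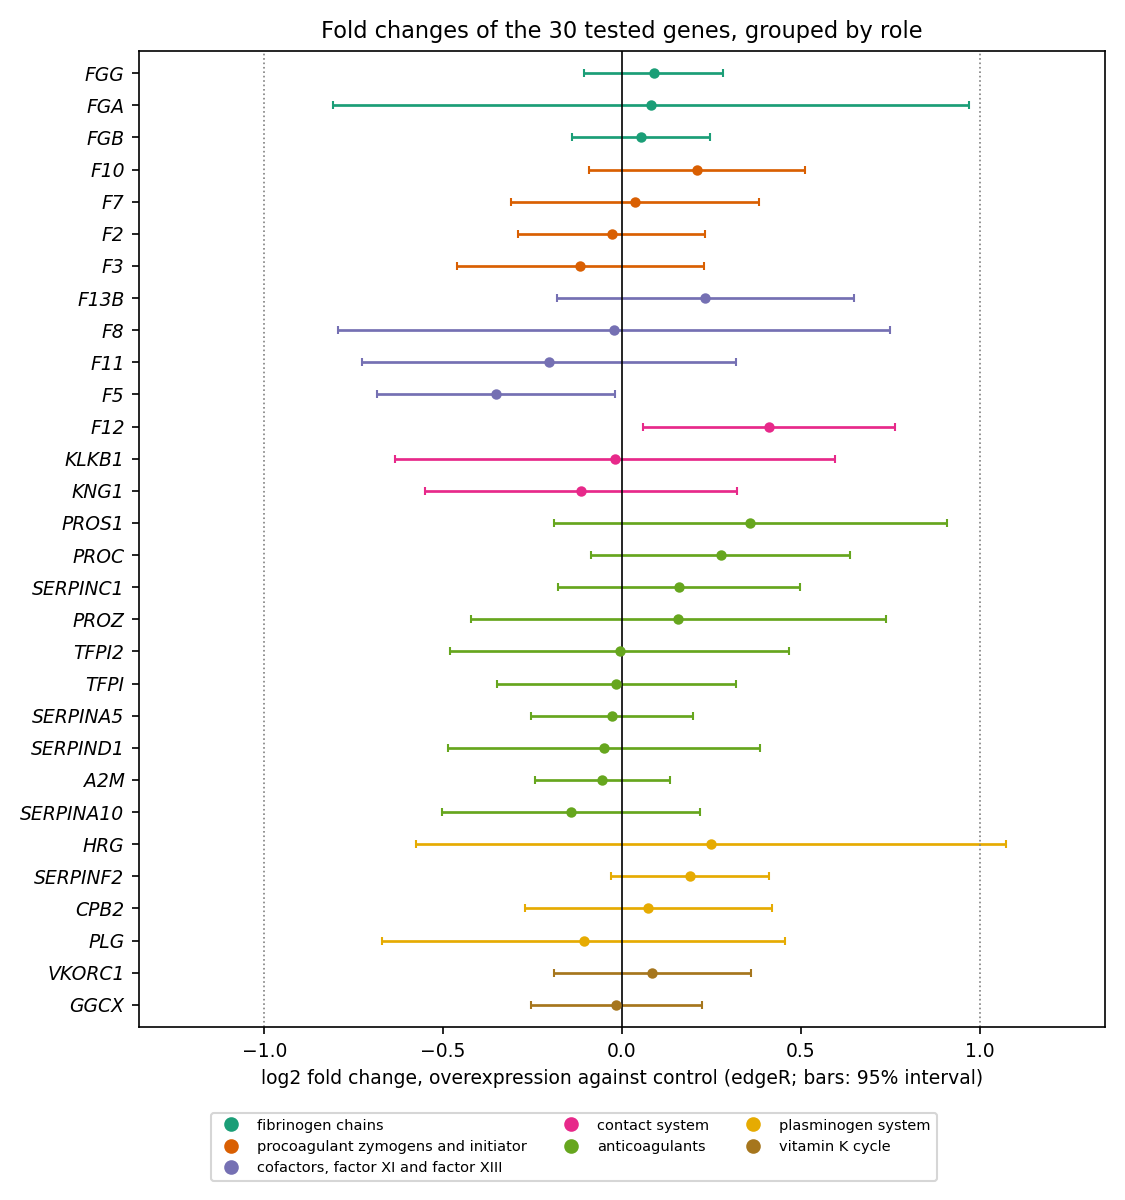
Log2 fold change of overexpression over control for the 30 tested members, grouped by role, with 95% intervals from edgeR's quasi-likelihood fit. F12 lies at 0.41 and F5 at -0.35, and the intervals of the other 28 cross 0.

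All 3 fibrinogen chains had slightly higher means with overexpression, none beyond the spread between libraries. FGA (chromosome 4 at 154583126 to 154590766, minus strand), which encodes the Aα chain, was at 1551, 1447 and 626.5 CPM in overexpression replicates 1 to 3 and at 1372, 1447 and 607.8 CPM in control replicates 1 to 3. It was low in replicate 3 of both groups, and the groups overlapped. FGB (chromosome 4 at 154562956 to 154571086, plus strand), which encodes the Bβ chain, was at 1840, 1670 and 1637 CPM with overexpression and at 1670, 1595 and 1694 CPM in control. FGG (chromosome 4 at 154604134 to 154612967, minus strand), which encodes the γ chain, was at 766, 784 and 706 CPM with overexpression and at 675, 741 and 705 CPM in control. Neither FGB nor FGG showed the low replicate 3 values of FGA.

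The group means of FGA were 1208 ± 507 and 1142 ± 465 CPM (SD, n = 3 each). On the log2 scale they differed by 0.08 ± 0.39 (SE, edgeR adjusted p = 0.973). For FGB the means were 1716 ± 109 and 1653 ± 51.7 CPM (SD, n = 3 each), which differed by 0.05 ± 0.08 (log2, SE, edgeR adjusted p = 0.901). For FGG they were 752 ± 41.1 and 707 ± 33.3 CPM (SD, n = 3 each), which differed by 0.09 ± 0.08 (log2, SE, edgeR adjusted p = 0.836). FGB and FGG were thus measured far more tightly than FGA. Their 95% log2 intervals ran from -0.14 to 0.25 and from -0.11 to 0.28.

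The ratio between chains separated the libraries in the same way. FGA over FGB was 0.843, 0.866 and 0.383 with overexpression and 0.822, 0.907 and 0.359 in control, in units of CPM over CPM. FGB over FGG ran only from 2.13 to 2.48 over the 6 libraries. Per kilobase, FGA made up 30.5%, 30.5% and 16.5% of the chains' sum with overexpression and 30.1%, 31.5% and 15.8% in control. FGA was thus low in replicate 3 of both groups to a like degree. The labels give no shared day or batch for libraries of the same number, and over all genes tested the deviations of same-numbered libraries had r near 0 (-0.0254, 0.00199 and -0.0282 for numbers 1 to 3, across genes, which are not independent replicates). Without both replicate 3 libraries, an alternative chosen after these values were seen, the log2 fold change of FGA was 0.09.

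**Figure D3:**
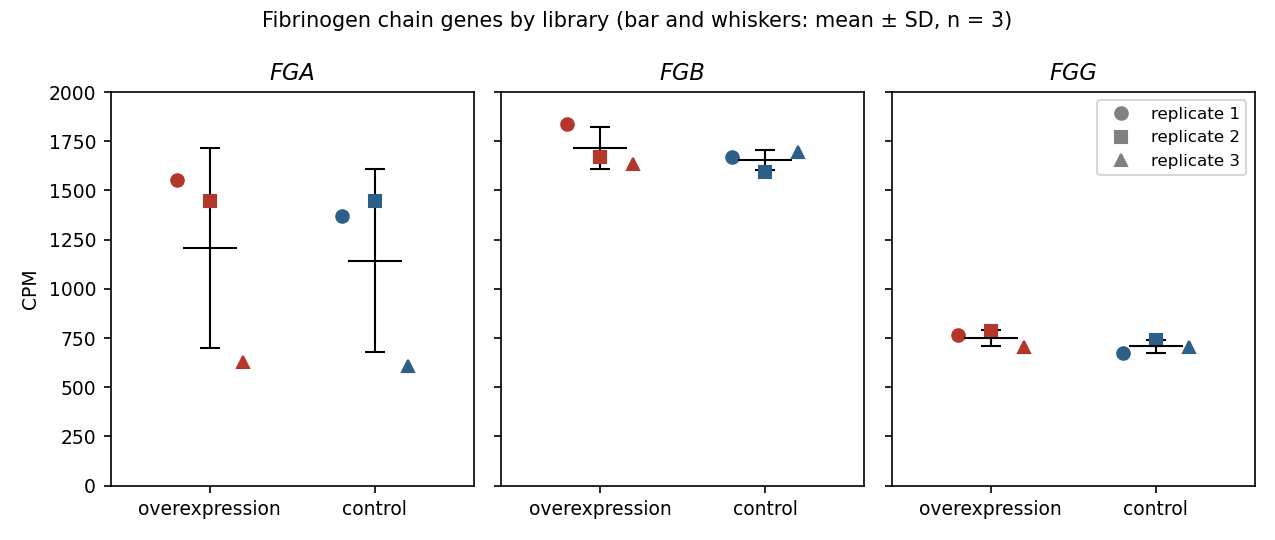
Levels of FGA, FGB and FGG in each library in CPM, with each point 1 library and bars for the mean ± SD (n = 3). FGA is at 626.5 and 607.8 in replicate 3 of the overexpression and control groups and between 1372 and 1551 in the other 4. FGB stays within 1595 to 1840 and FGG within 675 to 784.

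Among the initiator and the vitamin K-dependent procoagulant zymogens, 4 of 5 were tested and none differed. Their summed level was 327 ± 16.4 CPM with overexpression and 326 ± 38.2 CPM in control (SD, n = 3 each). F2, which encodes prothrombin, was at 257, 237 and 239 CPM with overexpression and at 272, 266 and 209 CPM in control. The overexpression libraries lay inside the range of the control libraries, and the log2 fold change was -0.03. F10, the zymogen of the protease that activates prothrombin, had a log2 fold change of 0.21 and an edgeR adjusted p of 0.797. F7 at 0.04 and F3 (tissue factor) at -0.12 on the log2 scale were nearer to 0, with edgeR adjusted p of 0.967 and 0.875.

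Among cofactors, factor XI and factor XIII, F5 was the only tested member whose groups did not overlap. F5 (chromosome 1 at 169514166 to 169586588, minus strand) encodes factor V, the cofactor with which factor Xa cuts prothrombin. It was at 255, 284 and 296 CPM with overexpression and at 438, 329 and 298 CPM in control. Every overexpression library lay below every control library, though overexpression replicate 3 and control replicate 3 differed by less than 1%, and control replicate 1 stood well above the rest. Means were 278 ± 21.1 and 355 ± 73.9 CPM (SD, n = 3 each), a fold of 0.783 (95% interval 0.622 to 0.986) or -0.35 ± 0.15 on the log2 scale (SE). The edgeR p was 0.0403, or 0.797 after adjustment. Without control replicate 1 the log2 fold change was -0.17. Control replicate 1 is also the library with the highest mitochondrial share (9.29%), whose part in this difference was not tested.

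The other members of this group had no separated values. F8, the cofactor of factor IX that carries the heptamer shown above, had a log2 fold change of -0.02 (standard error 0.34) at about 3.4 CPM in both groups. Its exons share 161 bases with FUNDC2 on the opposite strand, which held 1976 counts against 253 for F8. F11 was at -0.21 and F13B (the carrier subunit of factor XIII) at 0.23 on the log2 scale, with edgeR adjusted p of 0.856 and 0.808. With 1 library left out, F11 ran from -0.41 to -0.021 and F13B from 0.071 to 0.37.

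In the contact system, which starts clotting on charged surfaces and releases bradykinin, F12 had the largest positive log2 fold change of all members. F12 (chromosome 5 at 177402140 to 177409576, minus strand) encodes factor XII, the zymogen that starts this pathway. It was at 35.0, 33.2 and 29.01 CPM with overexpression and at 26.2, 27.6 and 19.3 CPM in control. Every overexpression library lay above every control library, and control replicate 3 was the lowest. Means were 32.4 ± 3.09 and 24.4 ± 4.42 CPM (SD, n = 3 each), a fold of 1.33 (95% interval 1.04 to 1.70) or 0.41 ± 0.15 on the log2 scale (SE). The edgeR p was 0.0270, or 0.797 after adjustment. Annotated exons of F12 share 399 bases with GRK6 on the opposite strand, and the strand setting of the counting is not given in the sources used here. GRK6 held 3725 counts against 2162 for F12. It had a fold of 1.01, and its part in the F12 counts was not tested.

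KNG1, which encodes high-molecular-weight kininogen, the bradykinin precursor, had the highest level per kilobase of the contact genes. It was at 72.6, 75.9 and 66.7 CPM with overexpression and at 101, 75.6 and 56.1 CPM in control. The control libraries spread widely around the overexpression libraries, and the log2 fold change was -0.11 with an edgeR adjusted p of 0.906. KLKB1 stood at -0.02 on the log2 scale, and some of its counts may belong to CYP4V2, whose exons share 201 bases with it on the same strand.

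Of the 12 anticoagulants, 10 were tested, with 4 log2 fold changes above 0 and 6 below and a median of -0.011. Their summed level was 2576 ± 67.5 CPM with overexpression and 2581 ± 172 CPM in control (SD, n = 3 each), and A2M made up most of it. A2M was at 1663, 1740 and 1820 CPM with overexpression and at 1794, 1893 and 1738 CPM in control. These groups overlapped, with a log2 fold change of -0.05 and a 95% interval from -0.24 to 0.13. Among the serpins, log2 fold changes were 0.16 for SERPINC1, -0.05 for SERPIND1, -0.03 for SERPINA5 (protein C inhibitor) and -0.14 for SERPINA10 (protein Z-dependent inhibitor). TFPI and TFPI2, Kunitz-type inhibitors of which TFPI blocks factor VIIa with tissue factor, were at -0.02 and -0.01.

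In the protein C arm, PROC and PROS1 had log2 fold changes above 0 that did not pass the test. PROC, the zymogen of activated protein C, which cleaves factors Va and VIIIa, had a log2 fold change of 0.28 and an edgeR adjusted p of 0.797. PROS1 (chromosome 3 at 93873033 to 93974066, minus strand), the cofactor of activated protein C, is described after its values were seen, because a single library sets its difference. It was at 252, 233 and 257.5 CPM with overexpression and at 117, 259 and 203 CPM in control. Control replicate 1 held less than any other library, and the groups overlapped. The groups differed by 0.36 ± 0.24 on the log2 scale (SE, edgeR adjusted p = 0.797). This difference was 0.10 with control replicate 1 left out and 0.63 with control replicate 2 left out.

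In the plasminogen system, SERPINF2 was the member whose groups did not overlap. SERPINF2 (chromosome 17 at 1742836 to 1755268, plus strand) encodes α2-antiplasmin, the main inhibitor of plasmin, and it holds the other heptamer shown above. It was at 152, 158 and 154 CPM with overexpression and at 130, 151 and 125 CPM in control. Overexpression replicate 1 and control replicate 2 differed by less than 1 CPM, and the other 2 control libraries were lower. Means were 155 ± 3.35 and 136 ± 13.8 CPM (SD, n = 3 each), a difference of 0.19 ± 0.10 on the log2 scale (SE). The edgeR p was 0.0810, or 0.797 after adjustment. The 2 members with the heptamer thus stood at 0.19 (SERPINF2) and -0.02 (F8) on the log2 scale.

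CPB2, the highest of this group per kilobase, was at 131, 104 and 102 CPM with overexpression and at 121, 113 and 86.6 CPM in control. The groups overlapped, with a log2 fold change of 0.07 and an edgeR adjusted p of 0.923. PLG, which encodes plasminogen, had a log2 fold change of -0.11 and an edgeR adjusted p of 0.932. Near-identical copies can share its reads. Of these, PLGLB1 had 164 counts over the 6 libraries, PLGLB2 had 61, LPA had 1 and PLGLA had 0. How the counting treated shared reads is not given, and their part in the PLG counts was not tested.

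The vitamin K cycle, which γ-carboxylates prothrombin, factors VII, IX and X and proteins C, S and Z, was close between groups at a summed 167 ± 1.62 CPM with overexpression and 166 ± 18.9 CPM in control (SD, n = 3 each). VKORC1, the reductase that warfarin blocks, was at 37.2, 32.4 and 34.0 CPM with overexpression and at 32.9, 36.1 and 28.6 CPM in control. The groups overlapped, with a log2 fold change of 0.08 and an edgeR adjusted p of 0.887. VKORC1 exons share 761 bases with AC135050.2 on the same strand and 1272 with AC135050.7 on the opposite strand. Those genes held 74 and 11 counts against 2529 for VKORC1, and the part of the overlaps in its counts was not tested. GGCX, the carboxylase, had a log2 fold change of -0.02. Its exons share 558 bases with MAT2A on the opposite strand, which held 22698 counts against 9973 for GGCX.

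The members varied more between control libraries than between overexpression libraries. The median SD of log2 levels was 0.13 with overexpression and 0.26 in control over the 30 members, against 0.14 and 0.18 over all genes tested. The control SD was the larger one in 21 of 30 members (70.0%), against 61.1% of all genes tested. In 10 members (33.3%, against 23.2% of all genes tested), all overexpression libraries lay inside the range of the control libraries.

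Control replicate 3 was the lowest of 6 libraries in 16 members (53.3%), against 16.4% of all genes tested. Control replicate 1 was the highest in 12 (40.0%), against 26.6%. The median deviation of the members from their own mean was 0.13, 0.052 and -0.21 on the log2 scale in control replicates 1 to 3 and 0.10, -0.011 and 0.0031 in overexpression replicates 1 to 3. The members farthest below their own mean in control replicate 3 were FGA, PLG, F12, F13B, SERPIND1 and SERPINC1, secreted proteins of several arms of the cascade. The same medians over the 16 hepatocyte and hepatoma markers were 0.030, 0.12 and -0.091 in control replicates 1 to 3 and 0.13, -0.018 and 0.0071 in overexpression replicates 1 to 3, and 7 of these markers were lowest in control replicate 3. Their part in the spread of the members was not tested. These shares describe libraries and not conditions, and the members' shared position in 1 library counts as 1 observation.

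**Figure D4:**
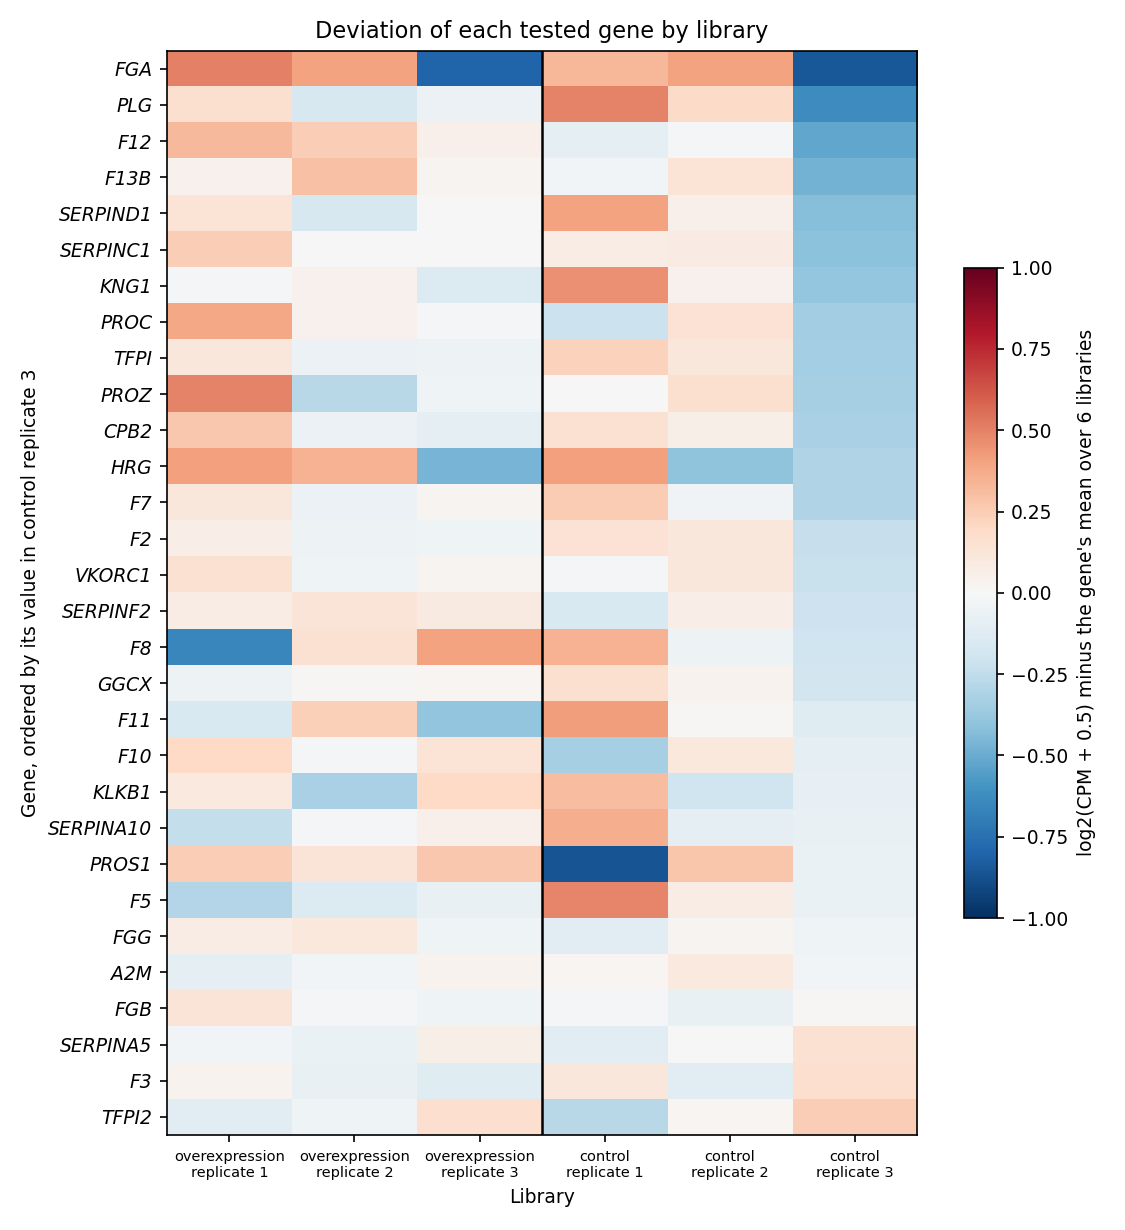
Deviation of log2(CPM + 0.5) from each gene's mean over 6 libraries, with 1 row for each of the 30 tested members, ordered by control replicate 3, and 1 column for each library. Blue fills most of the control replicate 3 column, whose median is -0.21, and FGA is blue in replicate 3 of both groups.

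The proteins that act with the clotting system were taken as a second list of 40 genes (receptors, activators, cargo carriers, inhibitors and clearance receptors), of which 39 were in the table and 32 were tested. None passed an adjusted p of 0.05 in edgeR, and log2 fold changes had a median of -0.0091, with 15 above 0 and 17 below. As in the members, levels varied more between control libraries. The median SD of log2 levels was 0.11 with overexpression and 0.23 in control, and the control SD was the larger one in 23 of 32 genes (71.9%). At an unadjusted p under 0.05 there were 2 (6.25%, against 5.5% of all genes tested), of which S100A10, a plasminogen receptor subunit on the cell surface, is described. S100A10 was at 140.3, 119 and 125 CPM with overexpression and at 47.3, 118 and 63.5 CPM in control. Its groups did not overlap, though control replicate 2 was within 1 CPM of the lowest overexpression library. The fold was 1.68 (95% interval 1.06 to 2.65, edgeR p of 0.0310, 0.797 after adjustment).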

How the data were processed

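RNA sequencing of 3 overexpression and 3 control libraries of Huh7 cells was analysed. The authors deposited raw read counts and FPKM per gene in 1 table, and the counts were used for the main test while the deposited FPKM values served an alternative. The submitters' processing notes name TopHat2 2.0.9 and hg38. The counting tool, strand setting and annotation release are not given in the sources used here. Of the gene IDs, 98.5% were in GENCODE 29 and 94.8% of those had the same coordinates, as did 31 of the 36 members.

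Groups came from the sample titles. Genes passed edgeR's filterByExpr with a minimum count of 10. Library sizes were scaled by the trimmed mean of M values, and all 15055 genes were fitted by edgeR 4.0.16 (glmQLFit and glmQLFTest, R 4.3.3) with group as the only term and Benjamini-Hochberg adjustment over all of them. The biological coefficient of variation was 16.1%. The script was tested on simulated data. Intervals are 95% and come from the quasi-likelihood fit. A count of 3 per library was taken as the floor for genes at 0.

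The members and lists were chosen with earlier results of these data known. Values in every library were given for members with an unadjusted p under 0.05 or without overlap between groups, for the fibrinogen chains and for the member with the highest level per kilobase in each role. Of the second list, genes with an unadjusted p under 0.05 were named, at most 6. A result that this rule would name is not reported here. Members that did not pass the filter were also given by their counts, and other members by level or log2 fold change. HRG and PROS1 are marked as picked after their values were seen. Same-numbered libraries were checked for pairing by the correlation of their deviations from group means over all genes, and none was above 0.1, so they were not treated as pairs.

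Alternatives were DESeq2 1.42.0, relative log expression (RLE) scaling, upper-quartile scaling, no filter, a mean of at least 50 counts, limma 3.58.1 on log2(FPKM + 1), keeping genes that reached 1 FPKM in 3 libraries, the replicate number as a block, each library left out in turn and, chosen after seeing the data, both replicate 3 libraries left out. Within groups, no library was a copy of another. Tables and figures were made with Python 3.11.15, pandas 2.3.3 and matplotlib 3.10.9. 3′ UTRs came from GENCODE 29, and promoters and the microRNA from RefSeq (GRCh38.p14).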

Additional observations from a re-analysis of the deposited data

How the results depend on the processing

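Over the 14 alternatives no member passed an adjusted p of 0.05 (smallest 0.669). Of 414 single member values, 373 kept their direction and 41 turned it, 29 of them with 1 library left out, and 15 members never turned. Those that turned had values of -0.14 to 0.16 with all libraries in edgeR, and the cause was not tested. TFPI2 was at 0.010 with upper-quartile scaling and 0.0012 with no filter. With limma on log2(FPKM + 1), F2 was at 0.0049, SERPIND1 at 0.0064, TFPI at 0.023, TFPI2 at 0.018 and GGCX at 0.014. Without both replicate 3 libraries (an alternative chosen after seeing the data), F7 was at -0.090, SERPINA5 at 0.0097 and TFPI2 at 0.049.

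With 1 library left out, log2 fold changes ran from -0.057 to 0.17 for CPB2, -0.14 to 0.040 for F2, -0.091 to 0.19 for F7, -0.28 to 0.27 for F8, -0.22 to 0.39 for FGA, -0.10 to 0.068 for GGCX, -0.14 to 0.17 for KLKB1, -0.30 to 0.13 for KNG1, -0.37 to 0.15 for PLG, -0.12 to 0.32 for PROZ, -0.22 to 0.025 for SERPINA10, -0.084 to 0.045 for SERPINA5, -0.24 to 0.17 for SERPIND1, -0.17 to 0.10 for TFPI and -0.14 to 0.14 for TFPI2. F12 ran from 0.27 to 0.51 and F5 from -0.46 to -0.17 with 1 library left out. Over the other 8 alternatives they ran from 0.34 to 0.43 and from -0.51 to -0.30. Their unadjusted p was under 0.05 in 11 and 8 of the 14 alternatives, where 2.53% to 7.36% of all genes tested were. Neither passed after adjustment in any, and the alternatives reuse the same libraries. Members that never turned also moved with 1 library left out, such as F10 from 0.11 to 0.33, SERPINC1 from 0.015 to 0.24, PROC from 0.14 to 0.43 and HRG from 0.076 to 0.61.

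Over all genes, 4 were called higher and 2 lower, against 7 and 17 with DESeq2, 4 lower without both replicate 3 libraries, and 1 to 7 higher and 2 to 9 lower with 1 library left out. Members with an unadjusted p under 0.05 numbered 2, against 1 with limma (3.7%, all genes 6.03%) and 0 to 6 with 1 library left out (6, or 20%, without control replicate 2, all genes 7.36%, and 0 without overexpression replicate 1 or 2, all genes 3.29% and 4.38%). The median of the members ran from -0.055 to 0.12 and that of the second list from -0.035 to 0.053 with 1 library left out, and the latter was 0.033 with limma and 0.030 without both replicate 3 libraries.

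With the replicate number as a block, 2 genes were called higher, 1 member (F12) had an unadjusted p under 0.05 (3.33%, all genes 4.39%), TFPI was at 0.0016 and TFPI2 at 0.0073. The labels do not say that the numbers pair the libraries, and deviations of same-numbered libraries had r near 0. These values are given for completeness.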

Other observations

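The low level of FGA in both replicate 3 libraries was looked for in other genes after its values were seen. Of 7944 genes with a mean of at least 20 CPM, 3 were at least 2-fold lower in both replicate 3 libraries than in each of the other 4 libraries, namely FGA, HIC2 and MXD1, and 2 were at least 2-fold higher, MTAP and TVP23B. Across the 9 ways to pick 1 overexpression and 1 control library, the same count ran from 0 to 4 lower and from 0 to 3 higher. The highest library of FGA held 2.55 times the lowest, against a median of 1.31 over the 7944 genes, and 223 genes had a ratio at or above that of FGA. The labels give no link between the replicate 3 libraries.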
